A study of Mus musculus with 12 samples.

Results

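The genes of ribosome biogenesis and RNA polymerase I transcription were followed through 2 stages of stress erythropoiesis in the spleen of mice whose diet held enough selenium or too little. They were chosen by function, as 56 named genes of the machinery that makes and processes ribosomal RNA, out of 30702 genes with an array feature. Of the 56, 54 had a feature that names them alone, and all 54 exceeded the filter on dim signals, so they are among the 20128 genes tested. The remaining members, Nop56 and Gnl3, lie on features that also name the small nucleolar RNA genes Snord57 and Snord19, and they are given by their values with no test.

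RNA came from splenic erythroblasts of male mice, sorted on day 3 after treatment with phenylhydrazine, which lyses red cells and was given to all 4 groups. For 3 months before it the mice had eaten feed that was adequate or deficient in selenium. The groups were adequate proerythroblasts, deficient proerythroblasts, adequate basophilic erythroblasts and deficient basophilic erythroblasts, the basophilic stage following the proerythroblast, with 3 Affymetrix whole-transcript arrays in each, 12 in all, from 5 ng of RNA per array. The labels used here give no strain, genotype or age and do not say whether an array holds 1 mouse or a pool, so p-values measure the spread between these arrays, which may be technical. Values are log2 expression, and the number of arrays limits their precision. Words such as fell are used of a limma fit with a Benjamini-Hochberg adjusted p under 0.05 over all genes tested.

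Ribosomes are built in the nucleolus. RNA polymerase I copies the ribosomal RNA genes into a long precursor, small nucleolar ribonucleoproteins modify it, the small subunit processome folds and cuts it, and further factors mature both subunits on their way to the cytoplasm. Erythroid precursors make ribosomes at a high rate early on, the nucleolus shrinks as they mature, and several genes of the pathway are known targets of MYC, which with its partner MAX binds the E-box CACGTG.

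Sequences of the 250 bases before each annotated transcript start were taken from RefSeq (GRCm38.p6) for 50 of the 56 members, which have 60 such windows because some genes have more than 1 start. They were searched on both strands for 4 motifs, none of which contains another. The E-box CACGTG was found in 5 member windows (8.33%), against 6.02% of all 32851 windows and 6.63% of those of protein-coding genes. The ETS motif CCGGAAG was found in 16 member windows (26.7%) of 15 members, against 6.91% of all windows and 8.98% of protein-coding ones. The YY1 motif AAGATGGC was found in 2 member windows (3.33%, against 1.56% of all), and the motif of ZBTB33 in 0 (against 0.39% of all). A match is a stretch of letters and not a measured binding site. The members with an E-box were Imp4, Nop2, Rpf2, Rrn3 and Utp18. The windows of 3 of them are printed, because they hold the E-box and had the smallest p of these members for the diet in proerythroblasts: Nop2, an rRNA methyltransferase of the large subunit, Rpf2, which helps to place the 5S particle, and Rrn3, which brings RNA polymerase I to its promoters. Each runs 5′ to 3′ on the strand of the gene, and capitals mark E-boxes (CACGTG) and ETS motifs (CCGGAAG, or CTTCCGG when on the opposite strand).
Nop2, chr6:125131633-125131882, plus strand: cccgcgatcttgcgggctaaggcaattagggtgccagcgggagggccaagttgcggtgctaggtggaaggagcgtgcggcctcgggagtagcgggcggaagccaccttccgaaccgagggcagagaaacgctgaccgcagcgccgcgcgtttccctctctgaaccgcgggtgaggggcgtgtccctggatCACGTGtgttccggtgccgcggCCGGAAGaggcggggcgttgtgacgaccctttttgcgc
Rpf2, chr10:40246980-40247229, minus strand: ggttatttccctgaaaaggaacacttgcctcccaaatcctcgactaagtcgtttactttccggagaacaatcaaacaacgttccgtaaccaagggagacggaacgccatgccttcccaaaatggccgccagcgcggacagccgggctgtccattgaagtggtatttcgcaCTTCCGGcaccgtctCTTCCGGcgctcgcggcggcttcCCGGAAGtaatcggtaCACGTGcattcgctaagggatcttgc
Rrn3, chr16:13780449-13780698, plus strand: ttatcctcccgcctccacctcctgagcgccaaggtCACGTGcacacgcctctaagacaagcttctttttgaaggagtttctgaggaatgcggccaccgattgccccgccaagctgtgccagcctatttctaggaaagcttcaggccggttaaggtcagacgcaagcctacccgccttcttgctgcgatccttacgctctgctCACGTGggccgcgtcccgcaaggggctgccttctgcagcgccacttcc
The first base of the E-box lay 60 bases before the start of Nop2. Rrn3 had a pair, at 48 and 215 bases before its start. Rpf2 has 2 windows, and only the printed one, before the inner of its transcript starts, holds the E-box, 26 bases before that start. Of this window 60 bases lie within the gene as annotated, and the E-box is among them. Rpf2 also had 3 ETS motifs and Nop2 had 1. Of the 3 printed genes only Nop2 passed in the diet comparison in proerythroblasts, while Rpf2 (-0.47) and Rrn3 (-0.23) did not.

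The arrays differed in ways that touch these results. The median of the GC background features was 3.31 to 3.53 in the proerythroblast arrays and 3.63 to 4.70 in the basophilic arrays. Replicate 2 of the basophilic erythroblasts had the highest background on either diet, 4.19 (adequate) and 4.70 (deficient), and stood apart from its group. For deficient basophilic replicate 3, 1 of the labels reads proerythroblasts, against its title and cell type. It was kept as basophilic. It read 6.08 for Kit and 12.69 for Alas2, near deficient basophilic replicate 1 (6.31 and 12.52). The deficient proerythroblast arrays read 6.76 to 7.12 for Kit and 11.47 to 11.78 for Alas2. The erythroid genes Gata1, Klf1 and Epor had group means of 8.56 to 8.92, 9.77 to 10.40 and 9.99 to 10.66. Other erythroblast markers, of 6 tested, differed more between the groups. From proerythroblasts to basophilic erythroblasts 4 of the 6 rose on the adequate diet: Alas2 (2.73), Slc4a1 (1.75), Tfrc (1.15) and Epor (0.58). On the deficient diet 2 rose, Alas2 (1.06) and Slc4a1 (0.38), and 0 fell on either diet. Of all genes, 28.7% rose on the adequate and 31.1% on the deficient diet. In bulk RNA, fewer cells of a type and less RNA per cell cannot be told apart.

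The members were highest in adequate proerythroblasts, lower in deficient proerythroblasts and far lower in basophilic erythroblasts on either diet. Taken per array as the median over the 54 members of the difference from the adequate proerythroblast mean, the adequate proerythroblast arrays stood at 0.01, 0.09 and -0.07. The deficient proerythroblast arrays stood at -0.24, -0.51 and -0.45, all below the adequate ones. The adequate basophilic arrays stood at -2.08, -2.28 and -2.06, and the deficient basophilic arrays at -1.68, -2.27 and -1.82. In this measure deficient basophilic replicate 2 lay among the adequate basophilic arrays, and the other deficient ones lay above them. The same median over all genes tested was between -0.01 and 0.16 in every array. In 45 of the 54 members the group means ran from adequate to deficient proerythroblasts, then deficient and last adequate basophilic erythroblasts. In 8, among them Dkc1, Npm1 and Ubtf, deficient basophilic erythroblasts were last or, for Nop10, level with the adequate ones. Rrs1 alone had both basophilic means above both proerythroblast means.

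**Figure D1:**
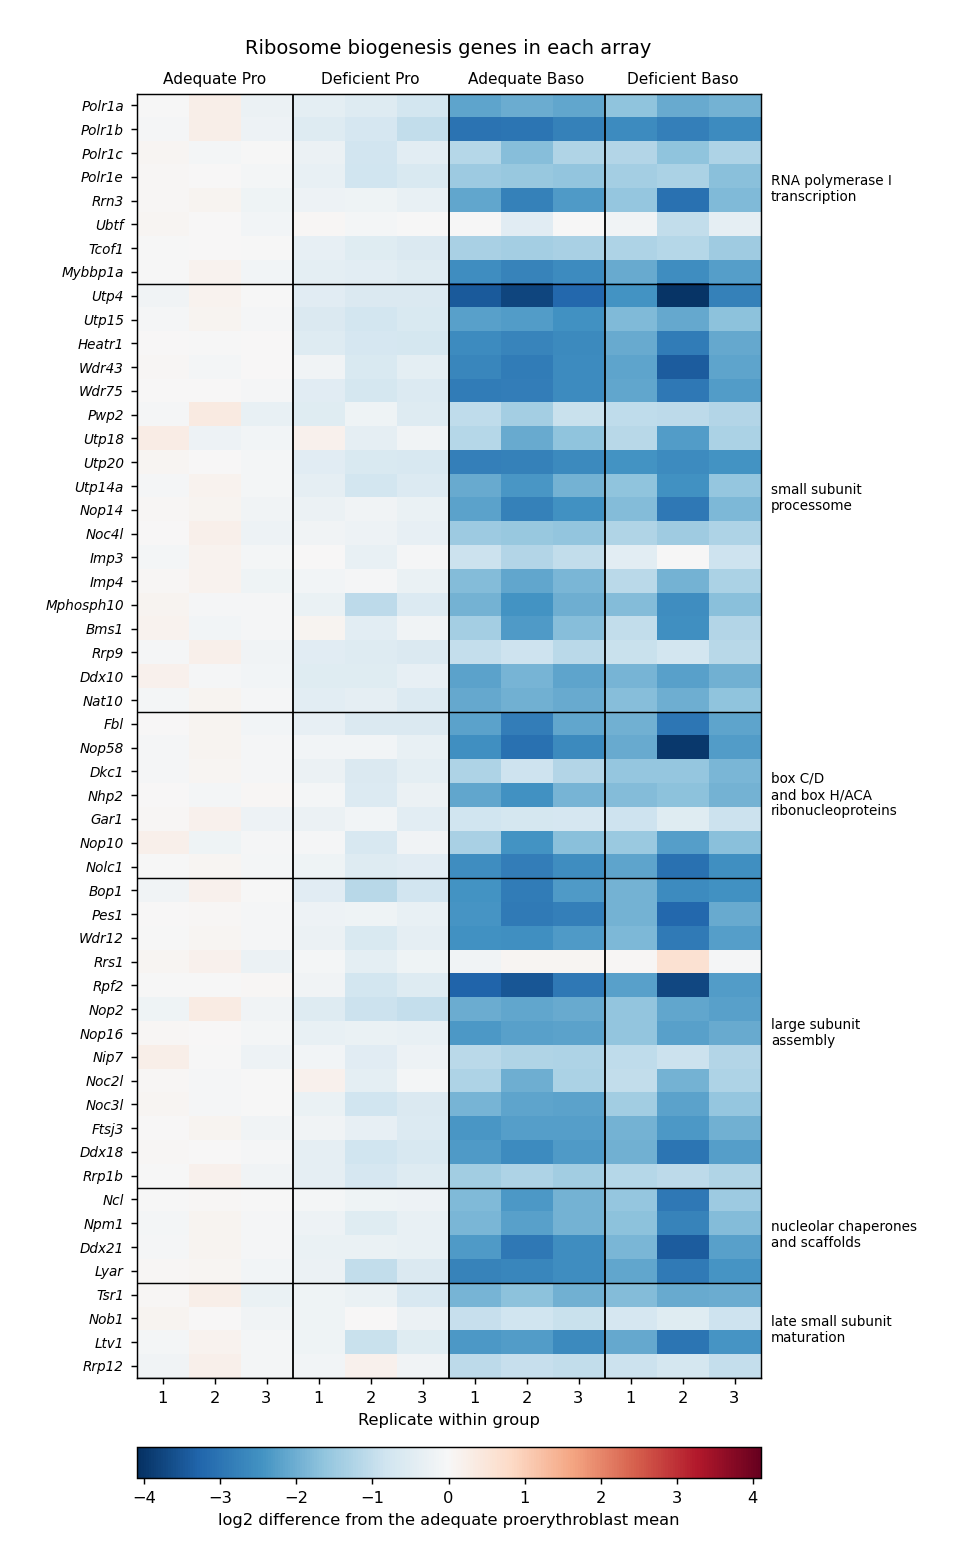
Log2 difference of each of the 54 tested members (grouped by role) from its own mean in adequate proerythroblasts, in each of the 12 arrays (columns); Pro is proerythroblasts, Baso is basophilic erythroblasts, and blue is lower. The basophilic arrays are blue for nearly all members, with Ubtf and Rrs1 near 0, and the deficient proerythroblast arrays are pale blue, with array medians of -0.24, -0.51 and -0.45.

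The stage comparison on the adequate diet asked how the genes differ between proerythroblasts and basophilic erythroblasts. Of the 54 members, 52 fell and 0 rose, while over all 20128 genes tested 25.6% fell. The members' median was -2.09, against 0.12 over all genes, and the estimates ran from -3.46 (Utp4) to 0.01 (Rrs1). In 52 members all 3 basophilic arrays lay below all 3 proerythroblast arrays, which held for 32.6% of all genes.

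Among the 8 RNA polymerase I genes 7 fell, with a median of -1.83. Mybbp1a, a nucleolar protein that binds the polymerase, read 9.89, 10.06 and 9.79 in adequate proerythroblasts and 7.38, 7.16 and 7.33 in adequate basophilic erythroblasts. No array of one stage reached the other, and the difference was -2.62 (SE 0.14, adjusted p = 6.90e-07), a 6.16-fold fall. Polr1b, the second-largest subunit of the enzyme, had -2.93 (SE 0.16, adjusted p = 7.90e-07). The largest subunit, Polr1a, had -2.10 (SE 0.16, adjusted p = 3.44e-06). Polr1c (-1.39), a subunit shared with RNA polymerase III, Polr1e (-1.55), the initiation factor gene Rrn3 (-2.41) and Tcof1 (-1.34), whose product is treacle, fell as well.

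All 18 small subunit processome genes fell, with a median of -2.10 and a range from -3.46 to -0.98. Utp20, a scaffold of the processome, read 8.08, 8.03 and 7.92 in adequate proerythroblasts and 5.20, 5.23 and 5.40 in adequate basophilic erythroblasts. The basophilic arrays were all far below, with a difference of -2.73 (SE 0.12, adjusted p = 2.97e-07), a 6.65-fold fall with the smallest p among the members. Utp15, of the subcomplex that first binds the precursor, had -2.33 (SE 0.14, adjusted p = 8.62e-07). Nat10, the RNA cytidine acetyltransferase, had -2.03 (SE 0.13, adjusted p = 1.21e-06). Utp4, of the same subcomplex as Utp15, had the lowest estimate of all members, -3.46 (SE 0.32), an 11.03-fold fall.

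All 7 tested genes of the small nucleolar ribonucleoproteins fell, with a median of -2.17. Nolc1, a phosphoprotein that accompanies these particles, read 10.49, 10.59 and 10.44 in adequate proerythroblasts and 7.97, 7.67 and 7.95 in adequate basophilic erythroblasts. The stages did not overlap, and the difference was -2.64 (SE 0.20, adjusted p = 3.53e-06). Nhp2, a core protein of box H/ACA particles, had -2.17 (SE 0.17, adjusted p = 3.73e-06). Fbl, fibrillarin, the methyltransferase of box C/D particles, had -2.38 (SE 0.25, adjusted p = 2.57e-05). Estimates were -1.11 for Dkc1, the pseudouridine synthase, and -0.74 for Gar1, both of box H/ACA, and -2.73 for Nop58, a box C/D core protein, and the differences between these genes were not tested. Nop56, on its shared feature, had a difference of -1.84.

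Of the 13 large subunit assembly genes 12 fell, with a median of -2.26. Nop16, a nucleolar protein of the large subunit precursor, read 9.59, 9.56 and 9.47 in adequate proerythroblasts and 7.17, 7.32 and 7.34 in adequate basophilic erythroblasts. The stages were well apart, with a difference of -2.26 (SE 0.15, adjusted p = 1.40e-06). Ftsj3, an rRNA methyltransferase, had -2.30 (SE 0.15, adjusted p = 1.50e-06). Bop1, which forms a complex with Pes1 and Wdr12, had -2.55 (SE 0.22, adjusted p = 8.17e-06). Its partners fell too, with -2.72 for Pes1 and -2.44 for Wdr12.

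The 4 tested nucleolar chaperones and scaffolds fell, with a median of -2.32. Lyar, a nucleolar zinc finger protein, read 10.03, 10.07 and 9.87 in adequate proerythroblasts and 7.26, 7.32 and 7.43 in adequate basophilic erythroblasts. The stages did not overlap, and the difference was -2.65 (SE 0.21, adjusted p = 5.02e-06). Npm1, nucleophosmin, had -2.02 (SE 0.24, adjusted p = 5.71e-05), and the RNA helicase gene Ddx21 -2.60 (SE 0.31, adjusted p = 6.57e-05). Gnl3, on its shared feature, had a difference of -2.66.

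All 4 genes of late small subunit maturation fell, with a median of -1.43. Tsr1, a GTPase-like factor of the late small subunit precursor, read 8.39, 8.58 and 8.07 in adequate proerythroblasts and 6.45, 6.68 and 6.37 in adequate basophilic erythroblasts. The stages did not overlap, and the difference was -1.85 (SE 0.17, adjusted p = 1.31e-05). Ltv1, an export and maturation factor, had -2.42 (SE 0.23), Rrp12 -1.01 (SE 0.14) and Nob1, the nuclease that makes the last cut of 18S rRNA, -0.90 (SE 0.13).

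Ubtf and Rrs1, named here after their values were seen, did not pass. Ubtf, the factor that keeps ribosomal RNA genes open, read 9.79, 9.71 and 9.60 in adequate proerythroblasts and 9.69, 9.22 and 9.70 in adequate basophilic erythroblasts. Its stages overlapped, with an estimate of -0.16 (SE 0.21, 95% confidence interval -0.61 to 0.29, adjusted p = 0.505), which was 0.02 under quantile normalization. Rrs1, a partner of Rpf2 in placing the 5S particle, read 7.44, 7.54 and 7.12, and then 7.22, 7.44 and 7.46. The ranges overlapped, and the estimate was 0.01 (SE 0.19, interval -0.40 to 0.42, adjusted p = 0.977), of either sign among the alternatives.

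Some markers of other cell types differed with the stage. Of all genes, 25.6% fell and 28.7% rose on the adequate diet. On the deficient diet 24.9% fell and 31.1% rose, so the rises among 9 macrophage markers are near the share of all genes. The mean over 10 neutrophil markers was 6.98 to 8.40 in adequate and 7.35 to 8.15 in deficient proerythroblasts, and 6.04 to 6.58 and 6.42 to 6.82 in adequate and deficient basophilic erythroblasts. Of the 10, 7 fell and 1, the protease Mmp9 (0.52, adjusted p = 0.0108), rose on the adequate diet, and 6 fell and 0 rose on the deficient diet. Of 9 tested macrophage markers 3 rose on both diets: C1qc by 0.66 on the adequate and 0.52 on the deficient diet, Marco by 0.70 and 0.52, and Siglec1 by 0.41 and 0.37. The mean of the macrophage list was 5.73 to 6.83 in adequate and 6.0 to 6.64 in deficient proerythroblasts, and 6.26 to 6.65 and 6.25 to 6.67 in adequate and deficient basophilic erythroblasts. Of 4 tested megakaryocyte markers 2 rose on both diets, the integrin Itga2b by 0.75 and 0.88 and Vwf by 0.70 and 0.63. That list's mean was 6.53 to 6.61 and 6.43 to 6.82 in adequate and deficient proerythroblasts, below the 7.0 to 7.04 and 7.14 to 7.19 of the basophilic groups. Of 5 tested B cell markers Ighm, the heavy chain of immunoglobulin M, fell on the deficient diet (-1.82, adjusted p = 0.00876), and of 6 T and NK cell markers 0 passed on either diet. The B cell mean was 7.86 to 9.21 and 8.10 to 8.68 in adequate and deficient proerythroblasts, and 7.81 to 8.15 and 7.33 to 7.92 in the basophilic groups. The part of these markers, and that of the higher background of the basophilic arrays, in the members' fall was not tested. Without replicate 2 of both basophilic groups the members' medians were -2.05 and -1.36 on the adequate and deficient diet.

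On the deficient diet the stage comparison, which uses other arrays, gave a fall in 51 of 54 members and a rise in 0, against a fall in 24.9% of all genes. The members' median was -1.52 (0.08 over all genes). In 52 members the basophilic arrays all lay below the proerythroblast arrays, as in 29.6% of all genes. The estimate was higher, which for nearly all members means closer to 0, than on the adequate diet in 52 of the 54 members, the exceptions being Ubtf and Dkc1. Over all 20128 genes it was higher in 11197. Across the 54 members the estimates on the 2 diets had a Pearson r of 0.92 (Spearman rho 0.90), against 0.87 over all genes, and genes are not independent replicates.

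By role on the deficient diet, the medians were -1.12 for RNA polymerase I, -1.40 for the small subunit processome and -1.55 for small nucleolar ribonucleoproteins. They were -1.54 for large subunit assembly, -1.86 for chaperones and scaffolds and -1.21 for late small subunit maturation. The smallest p-values were those of Utp20 (-1.92, SE 0.12, adjusted p = 2.53e-05) and Mybbp1a (-1.83, SE 0.14, adjusted p = 1.02e-04). The polymerase subunit genes Polr1b (-1.92) and Polr1a (-1.34), the helicase gene Ddx10 (-1.60) and Nat10 (-1.36) also fell. Nolc1 (-2.18), Nhp2 (-1.51) and Dkc1 (-1.26) fell among the ribonucleoproteins, and Ftsj3 (-1.74), Nop16 (-1.69) and Wdr12 (-1.91) in large subunit assembly. Lyar (-1.88), Npm1 (-1.74) and Ddx21 (-2.22) fell among the chaperones and scaffolds, and Tsr1 (-1.59), Ltv1 (-1.98) and Rrp12 (-0.83) in late maturation. The lowest estimates were those of Nop58 (-2.59) and Utp4 (-2.53). The shared features of Nop56 and Gnl3 had differences of -1.66 and -1.99.

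The 3 members that did not pass on the deficient diet, named after their values were seen, were Ubtf, Rrs1 and Imp3. Ubtf read 9.76, 9.61 and 9.67 in deficient proerythroblasts and 9.55, 8.70 and 9.34 in deficient basophilic erythroblasts. The basophilic arrays were all lower, and the estimate was -0.48 (SE 0.21, adjusted p = 0.0619), with adjusted p-values of 0.0468 under median centring, 0.0229 without deficient basophilic replicate 1, 0.0482 without adequate basophilic replicate 2 and 0.0282 with a replicate block. Rrs1 read 7.30, 6.97 and 7.20, and then 7.42, 7.99 and 7.33. Its basophilic arrays were all higher, and the estimate was 0.42 (SE 0.19, adjusted p = 0.0702), with an adjusted p of 0.0477 under quantile normalization and 0.0348 without deficient basophilic replicate 3. Imp3, a processome protein that helps pair the U3 RNA with the precursor, read 9.05, 8.73 and 9.0, and then 8.61, 9.03 and 8.18. Its ranges overlapped through basophilic replicate 2, with an estimate of -0.32 (SE 0.20, adjusted p = 0.172). Without that array it was -0.53 (adjusted p = 0.0243), with median centring -0.51 (adjusted p = 0.0456), and with quantile normalization 0.08.

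**Figure D2:**
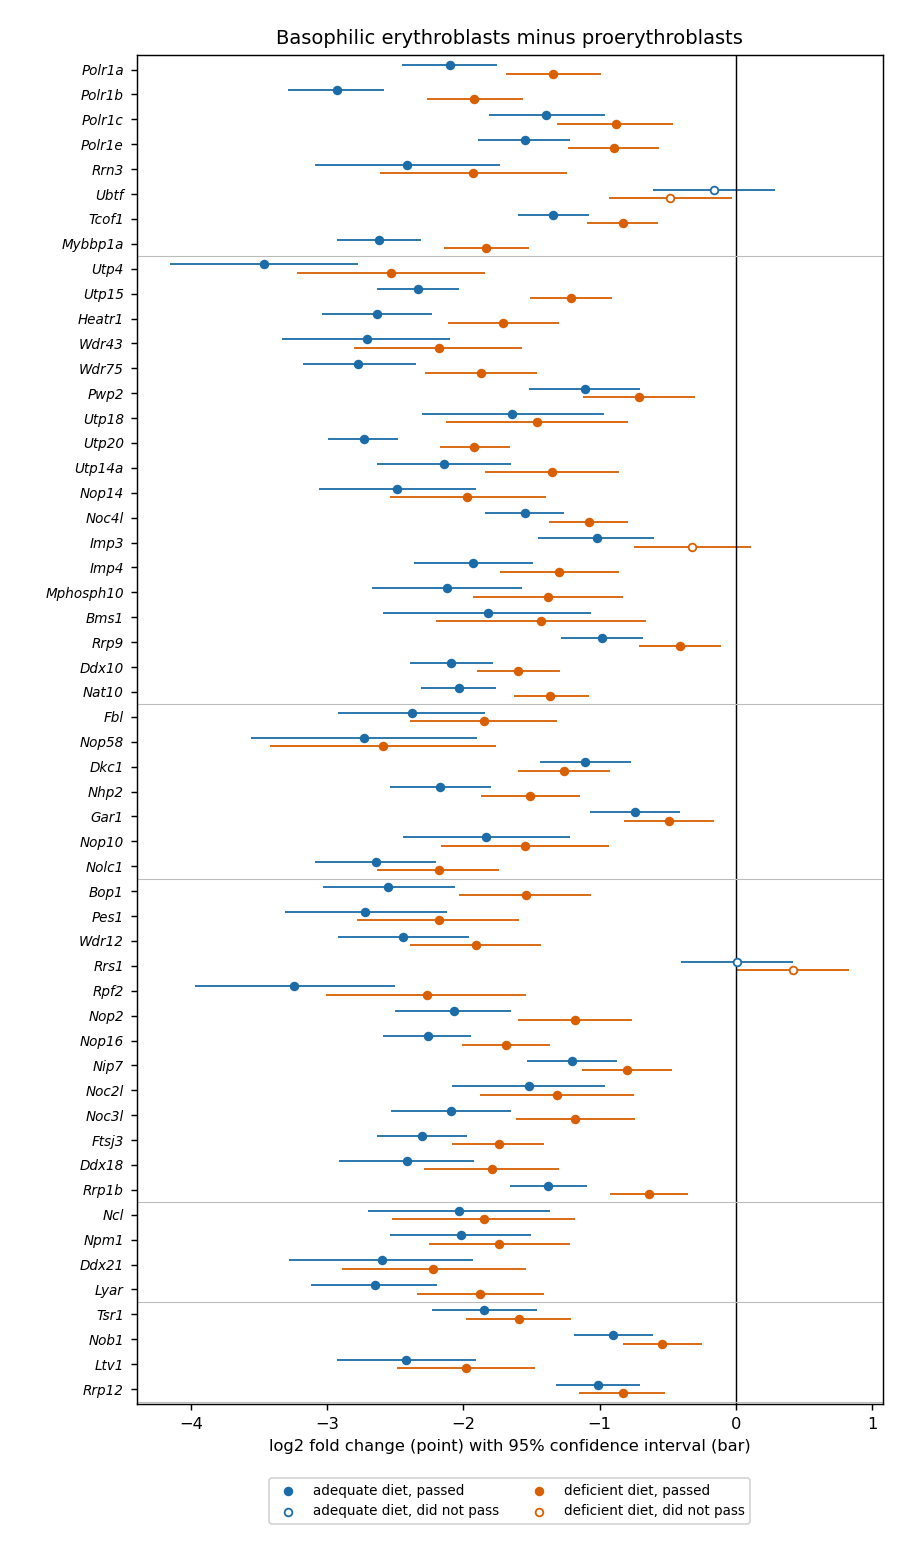
Log2 fold change between basophilic erythroblasts and proerythroblasts for each of the 54 tested members on the adequate (blue) and the deficient diet (orange), with 95% confidence intervals; filled points passed an adjusted p of 0.05. Points lie left of 0 except for Rrs1, and the deficient diet's point lies to the right of the adequate diet's in 52 members.

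The diet comparison in proerythroblasts asked what the deficient diet changed at the earlier stage. It found 5 members that fell, Polr1b, Utp20, Utp15, Nop2 and Rrp1b, and 0 that rose, while 2.76% of all genes fell. All 54 estimates were below 0, as were 45.6% of all genes, with a median of -0.41 (0.02 over all genes) and a range from -0.81 (Nop2) to -0.02 (Ubtf). An unadjusted p under 0.05 was found in 24 members, all lower, against 9.12% of all genes. In 37 members the 3 deficient arrays all lay below the 3 adequate arrays, against 15.6% of all genes, and in the other 17 they overlapped. The comparison shares its adequate arrays with the stage comparison on the adequate diet, so both sets of estimates rest on those 3 arrays.

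In RNA polymerase I transcription, 1 of 8 members fell, with a median of -0.48. Polr1b read 9.25, 9.53 and 9.07 in adequate and 8.75, 8.59 and 8.27 in deficient proerythroblasts. Every deficient array lay below every adequate one, and the difference was -0.75 (SE 0.16, adjusted p = 0.0254), a 1.68-fold fall. Tcof1 (-0.47, adjusted p = 0.0508), Polr1e (-0.58, adjusted p = 0.057) and Polr1a (-0.56, adjusted p = 0.0847) were above the threshold.

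In the small subunit processome, 2 of 18 fell, with a median of -0.44. Utp20 read 8.08, 8.03 and 7.92 in adequate and 7.53, 7.39 and 7.36 in deficient proerythroblasts. The diets were apart by more than the spread within either, by -0.58 (SE 0.12, adjusted p = 0.0148), a 1.5-fold fall. Utp15 read 8.26, 8.40 and 8.24, and then 7.71, 7.54 and 7.68. Again no array overlapped, and the difference was -0.66 (SE 0.14, adjusted p = 0.0198), a 1.58-fold fall. Of the other 16, Rrp9, a protein of the U3 particle, had -0.53 (adjusted p = 0.0594), and Imp3, Imp4, Utp18 and Bms1 lay between -0.15 and -0.11 with overlapping arrays.

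In large subunit assembly, 2 of 13 fell, with a median of -0.42. Nop2 read 9.54, 10.05 and 9.59 in adequate and 9.19, 8.83 and 8.74 in deficient proerythroblasts. The lowest adequate array was above the highest deficient one, and the difference of -0.81 (SE 0.19, adjusted p = 0.0388) was the lowest estimate of the members. Rrp1b, a nucleolar protein of the large subunit precursor, read 7.37, 7.55 and 7.23, and then 7.01, 6.71 and 6.85. Its diets did not overlap either, with a difference of -0.53 (SE 0.13, adjusted p = 0.0446). Bop1 had -0.79 with a wider error (SE 0.22, adjusted p = 0.0775).

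No gene of the other 3 roles passed. Dkc1 read 9.82, 9.94 and 9.80 in adequate and 9.61, 9.25 and 9.44 in deficient proerythroblasts. The deficient arrays were all lower, with an estimate of -0.42 (SE 0.15, interval -0.76 to -0.08, adjusted p = 0.193). Lyar read 10.03, 10.07 and 9.87, and then 9.76, 8.99 and 9.41. Its deficient arrays were all lower but spread widely, with an estimate of -0.60 (SE 0.21, interval -1.07 to -0.14, adjusted p = 0.178). Ltv1 read 9.52, 9.73 and 9.52, and then 9.41, 8.68 and 9.10. The deficient arrays were all lower, replicate 1 only just, with an estimate of -0.53 (SE 0.23, interval -1.04 to -0.02, adjusted p = 0.332). The medians were -0.29, -0.31 and -0.25 for ribonucleoproteins, chaperones and late maturation. Nop56 and Gnl3, on shared features, had differences of -0.36 and -0.48.

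**Figure D3:**
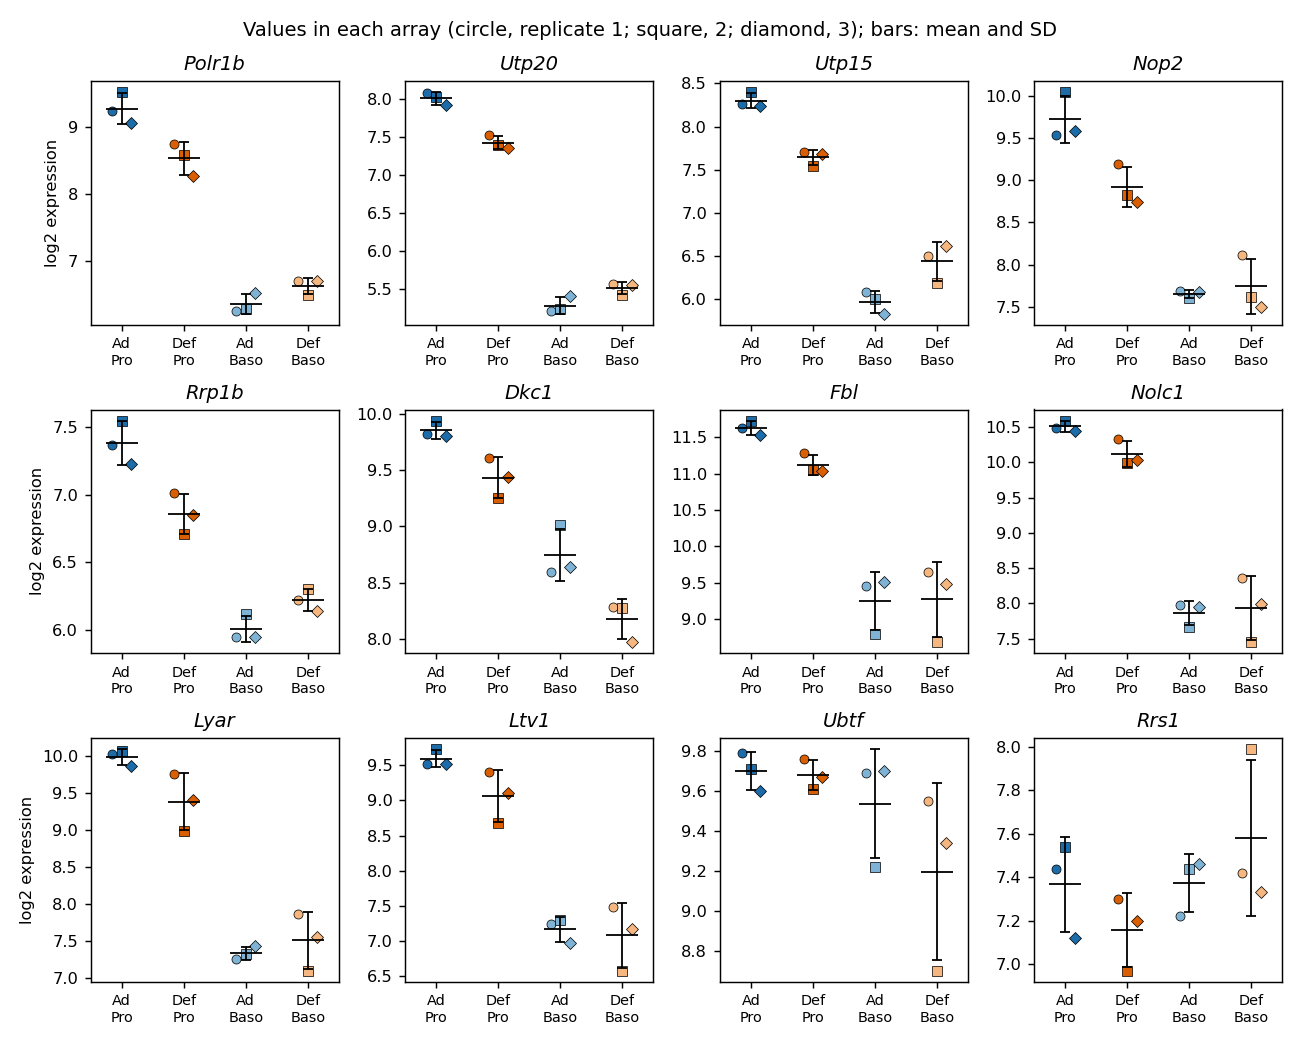
Log2 expression of 12 members in the 12 arrays: points are arrays (circle, square and diamond for replicates 1, 2 and 3), bars the mean and SD of 3 arrays, Ad and Def the adequate and deficient diet, Pro and Baso the stages. The vertical axes start above 0 and differ between panels. Polr1b, Utp20, Utp15, Nop2 and Rrp1b step down with the diet in proerythroblasts and further with the stage, while Ubtf and Rrs1 overlap between the adequate stages.

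The 5 calls rested on the error estimate and on single arrays. No member was called without adequate proerythroblast replicate 1 or 2 (1.02% and 1.13% of all genes fell). Nor was any without deficient proerythroblast replicate 2 or 3 (1.34% and 1.1%). Without adequate proerythroblast replicate 3, 2 were called (2.02%). Leaving out adequate basophilic replicate 1 or 3 left 3 calls (2.4% and 2.1% of all genes). Leaving out deficient basophilic replicate 2 gave 19 (5.64% of all genes then fell). These basophilic arrays enter only the shared error. Same-numbered arrays of both diets deviated together. With a replicate block 11 members fell, against 3.75% of all genes. When the replicate block was set within each stage, a fit added after seeing the data, 20 fell (7.05% of all genes). Without replicate 2 of both basophilic groups 25 fell, against 9.37% of all genes. With 1 array left out, between 51 and 54 of the 54 estimates were below 0.

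Some markers of maturation, but not all, moved with the diet in these cells. Kit, the receptor for stem cell factor, read 8.97, 9.34 and 8.98 in adequate and 6.76, 6.88 and 7.12 in deficient proerythroblasts. Alas2, the first enzyme of erythroid heme synthesis, read 9.53, 10.19 and 10.19, and then 11.67, 11.47 and 11.78. Neither gene's diets overlapped, and both differed in the direction of the stage comparison on the adequate diet. Kit differed by -2.18 with the diet and -2.76 with that stage comparison, Alas2 by 1.67 and 2.73. Both comparisons use the same adequate proerythroblast arrays, so the shared direction is partly built in. On the deficient diet Kit had a mean of 6.92 in proerythroblasts and 6.3 in basophilic erythroblasts. Alas2 had 11.64 and then 12.7. Of 3 tested progenitor markers 2 fell with the diet (Kit and Myb), and of 6 tested erythroblast markers 3 rose (Alas2, Slc4a1 and Tfrc). Of all genes, 2.76% fell and 1.27% rose. The others did not pass, with adequate and deficient means of 8.56 and 8.64 for Gata1 and 7.11 and 7.03 for Gata2. Klf1 (10.03 and 9.92) and Epor (10.09 and 9.99) were slightly lower on the deficient diet. In adequate basophilic erythroblasts they were higher (10.40 and 10.66), so these 2 went against the direction of the stage. The mean of the progenitor list was 7.40 to 7.62 in adequate and 6.41 to 6.60 in deficient proerythroblasts, and that of the erythroblast list 9.86 to 10.15 and 10.53 to 10.71. Of other cell types, 1 of 4 tested megakaryocyte markers, Itga2b (0.75, adjusted p = 0.0324), and 1 of 10 neutrophil markers, Mmp9 (0.57, adjusted p = 0.0373), rose with the diet, with all deficient arrays above all adequate ones. The part of all these markers in the members' lower values was not tested.

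In basophilic erythroblasts the diet comparison called 0 members (limma), against 0.0199% of all genes, and 6 had an unadjusted p under 0.05, as had 6.48% of all genes. Of the 54 estimates 46 were above 0, 7 below and 1, that of Nop10, at 0, with a median of 0.16 (0.04 over all genes), and 58.1% of all genes were above 0. This lean depended on single arrays. With 1 array left out, between 30 and 49 estimates were above 0, with medians from 0.04 to 0.33. The fewest, 30 above and 24 below 0, came without deficient basophilic replicate 1. Under median centring 37 were above and 17 below 0, with a median of 0.1. The arrays overlapped in 48 members. In 5 the deficient arrays were all higher (4.13% of all genes), and in Dkc1 they were all lower (3.91%).

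By role, the smallest p-values included those of Utp15 and Dkc1. Utp15 read 6.08, 6.0 and 5.83 in adequate and 6.50, 6.19 and 6.62 in deficient basophilic erythroblasts. The deficient arrays were all higher, the reverse of proerythroblasts, with an estimate of 0.47 (SE 0.14, interval 0.17 to 0.77, adjusted p = 0.394). Dkc1 read 8.59, 9.01 and 8.64, and then 8.28, 8.27 and 7.97. The deficient arrays were all lower, with an estimate of -0.57 (SE 0.15, interval -0.91 to -0.24, adjusted p = 0.323). The polymerase-binding Mybbp1a had 0.33 (SE 0.14, adjusted p = 0.717), Nop16 0.29 (SE 0.15, adjusted p = 0.844) and Nob1 0.22 (SE 0.13, adjusted p = 0.926). Lyar had 0.17 (SE 0.21, adjusted p = 0.954), and -0.01 without deficient basophilic replicate 1. By role the medians were 0.23 for the processome and 0.21 for large subunit assembly, in which all 18 and all 13 estimates were above 0. They were 0.14, 0.00, 0.07 and 0.03 for RNA polymerase I, ribonucleoproteins, chaperones and late maturation. Nop56 and Gnl3, on shared features, had differences of -0.18 and 0.19.

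Deficient basophilic replicate 2 decided how many were called. It was the lowest deficient basophilic array in 40 of the 54 members, and without it 7 rose, against 1.1% of all genes. Without replicate 2 of both diets 6 rose, against 1.37% of all genes: Heatr1 (0.51), Utp15 (0.60) and Utp4 (0.71) of the subcomplex that first binds the precursor, Imp4 (0.64), Pes1 (0.61) and Rpf2 (0.85). The median was then 0.24. With array weights, which gave deficient replicate 2 a weight of 0.049, 21 members rose and 1 fell. Of all genes 5.52% then rose and 4.94% fell.

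**Figure D4:**
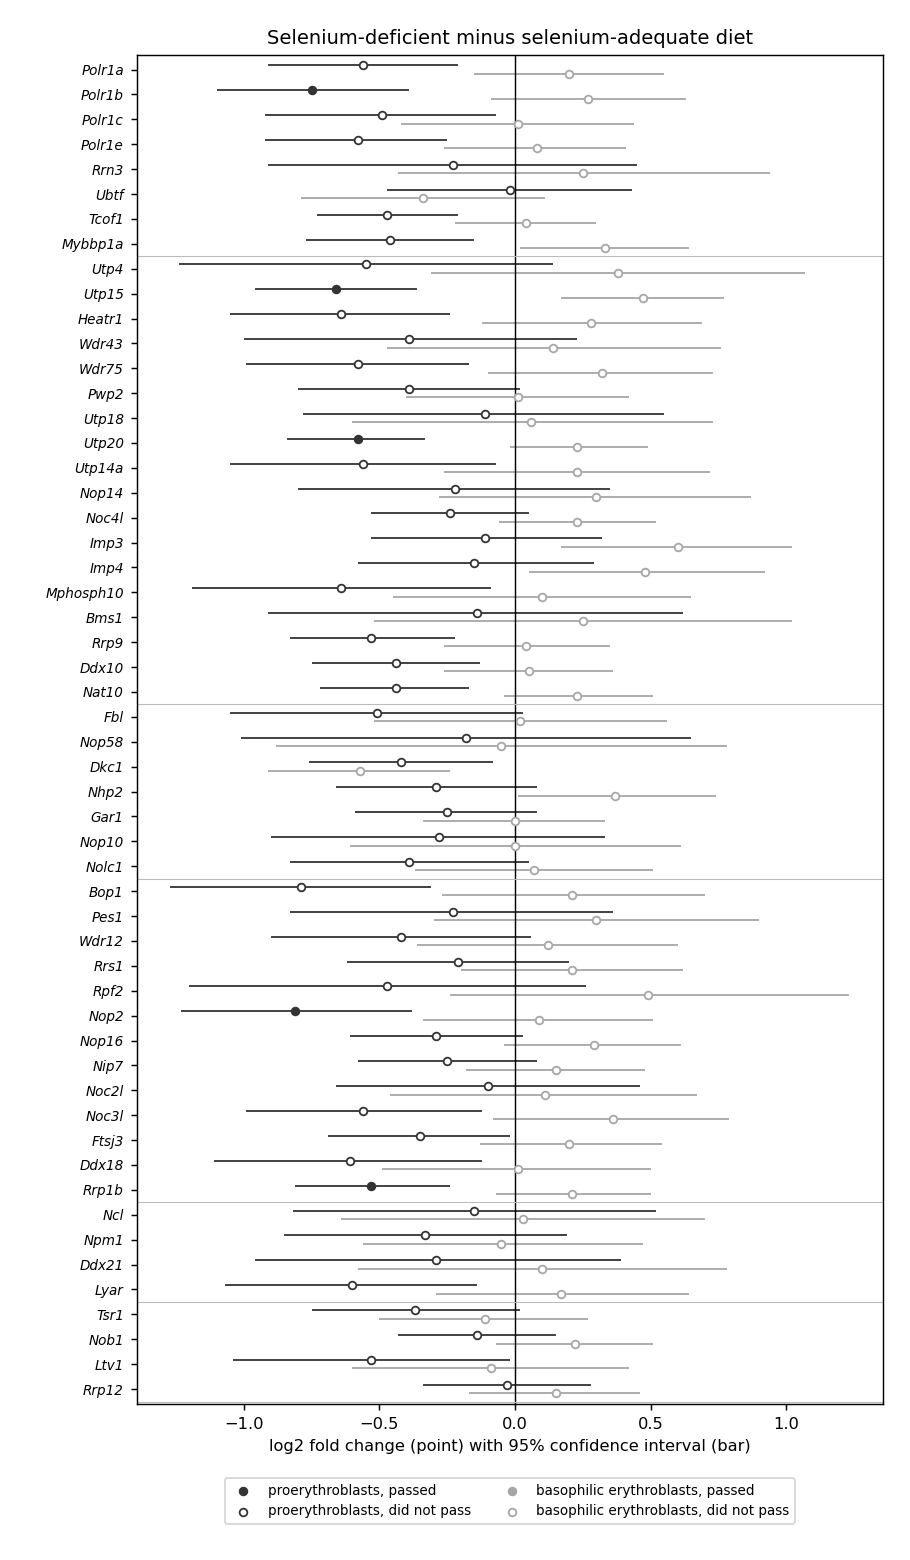
Log2 fold change between the deficient and the adequate diet for each of the 54 tested members in proerythroblasts (black) and basophilic erythroblasts (grey), with 95% confidence intervals; filled points passed an adjusted p of 0.05. The black points all lie below 0, between -0.81 and -0.02, with 5 filled, and 46 of the grey points lie above 0, with 0 filled.

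The difference between the diet effects of the 2 stages was tested as an interaction, the basophilic diet effect minus that in proerythroblasts. It passed for 1 member, Utp15 (1.12, SE 0.19, interval 0.70 to 1.55, adjusted p = 0.0447), against 0.159% of all genes with a positive interaction. The estimates were above 0 in 52 of 54 members (55.6% of all genes), below 0 in Ubtf (-0.32) and Dkc1 (-0.15), and had a median of 0.53 (0.03 over all genes). The interaction is also the stage estimate on the deficient diet minus that on the adequate diet. Its signs therefore repeat the comparison of the 2 stage estimates given above and are no separate result. An unadjusted p under 0.05 was found in 24 members, all positive, against 5.7% of all genes. In the other roles the smallest p-values were those of Polr1b (1.02, adjusted p = 0.102), Rrp1b (0.74, adjusted p = 0.135), Nhp2 (0.66, adjusted p = 0.334), Lyar (0.78, adjusted p = 0.406) and Nob1 (0.36, adjusted p = 0.65). By role the median was highest in the processome, 0.65, and lowest in the ribonucleoproteins, 0.28, and these medians were not tested against each other. The call of Utp15 ended with a replicate block (0 members, against 0.164% of all genes with a positive interaction). A replicate block within each stage gave 6, Polr1b, Utp15, Utp20, Mybbp1a, Heatr1 and Noc3l (1.51% of all genes were positive there). The call ended when any 1 array other than deficient basophilic replicate 2 was left out; without that array 14 passed, all positive, against 0.984% of all genes. Leaving out replicate 2 of both basophilic groups gave 19 (2.01% of all genes were positive).

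Other genes of the pathway, in lists that exclude the members, were also lower at the later stage. Of all genes, 25.6% fell on the adequate and 24.9% on the deficient diet. Of 33 other small subunit factors 31 fell on the adequate and 28 on the deficient diet, with medians of -1.50 and -1.18. Aatf, a processome component, had -2.30 and -1.50. Of 40 other large subunit factors 39 and 37 fell, with medians of -1.39 and -0.97. The ATPase gene Mdn1, which remodels large subunit precursors, had -2.08 and -1.17. Of 12 further RNA polymerase I subunits and initiation factors 9 and 7 fell (medians -1.20 and -0.76), among them Taf1a (-1.46 and -0.72), of the promoter selectivity factor. All 9 tested small nucleolar ribonucleoprotein assembly factors fell on the adequate and 8 on the deficient diet (medians -2.04 and -1.29), and of 13 nucleases that trim ribosomal RNA 12 and 11 fell (medians -1.38 and -1.17). Of 20 RNA polymerase III genes 14 fell and 1 rose on the adequate diet, and 11 fell and 1 rose on the deficient. Of 34 tested cytosolic ribosomal protein genes, out of 79, 32 and 29 fell, with medians of -0.72 and -0.59.

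With the diet in proerythroblasts 2.76% of all genes fell. Of the 33 other small subunit factors 1 fell (Aatf, -0.58), which is near that share. Of the 40 large subunit factors 4 fell, among them Mdn1 (-0.72), Las1l (-0.72), of an rRNA-cutting complex, and Wdr18 (-0.60). Of the 9 assembly factors for small nucleolar ribonucleoproteins 4 fell, with a list median of -0.76 against the members' -0.41, among them Rpap3 (-1.0, SE 0.16), Ruvbl2 (-0.89, SE 0.18) and Naf1 (-0.92, SE 0.21). The exosome genes Exosc3 (-0.90) and Exosc7 (-0.98) were the 2 of 13 nucleases that fell. Gtf3c3 (-0.86) and Polr3b (-0.78) were the 2 of 20 RNA polymerase III genes, and Znrd1 (-0.62), an RNA polymerase I subunit gene, the 1 of 12. Of the 34 ribosomal protein genes 0 passed and 1 had an unadjusted p under 0.05 (limma), with a median of -0.13. Still, 33 of their estimates were below 0, and in 11 all deficient arrays were lower (15.6% of all genes). The lean below 0 was shared by 31 of 33 small and 37 of 40 large subunit factors and 12 of 12 RNA polymerase I genes. It was also seen in 9 of 9 assembly factors, 11 of 13 nucleases and 16 of 20 RNA polymerase III genes, against 45.6% of all genes. In basophilic erythroblasts 0 genes of these lists passed, against 0.0199% of all genes. Between 1 and 4 per list had an unadjusted p under 0.05 (limma), as had 6.48% of all genes.

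MYC itself and its network were measured as well. Myc read 8.59, 9.31 and 8.93 in adequate and 8.28, 8.05 and 8.28 in deficient proerythroblasts. The deficient arrays were all lower, with an estimate of -0.74 (SE 0.22, adjusted p = 0.0985). In basophilic erythroblasts it read 7.45, 6.77 and 7.06 on the adequate and 7.42, 6.84 and 7.12 on the deficient diet. These lay below all proerythroblast arrays, and the stage differences were -1.85 (SE 0.22, adjusted p = 6.93e-05) and -1.08 (SE 0.22, adjusted p = 0.00533). Of the 10 genes of the network 1 passed with the diet in proerythroblasts, where 2.76% of all genes fell and 1.27% rose. Mxd1, which competes with MYC for MAX, rose by 1.18 (SE 0.13, adjusted p = 8.60e-04). It also rose with the stage by 2.41 and 1.31, and its interaction was -1.10 (adjusted p = 0.0411). Mxi1, of the same family, rose with the stage by 1.26 and 0.83.

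**Figure D5:**
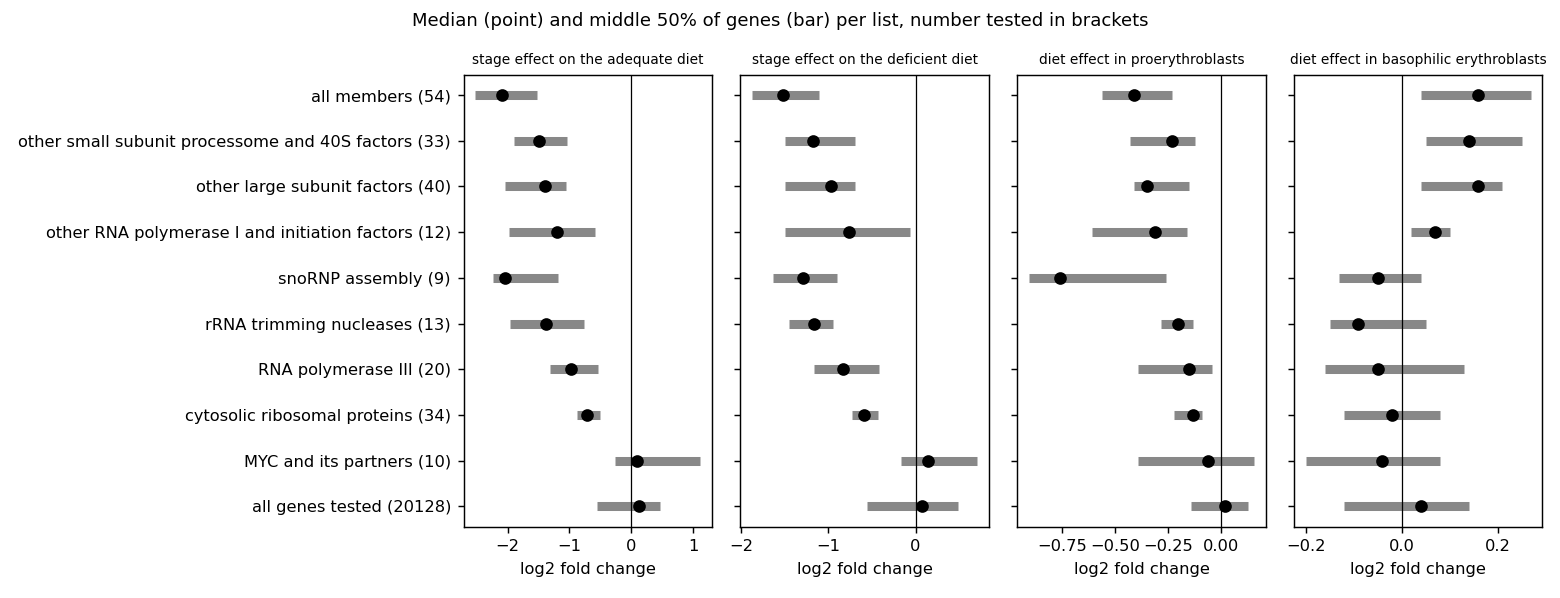
Median log2 fold change (point) and middle 50% of genes (bar) of the members, of 8 other lists and of all genes tested, in 4 comparisons, with the number of genes tested in brackets; the horizontal scale differs between panels. The members have the lowest median in both stage panels (-2.09 and -1.52), and the assembly factors for small nucleolar ribonucleoproteins in the panel for the diet in proerythroblasts (-0.76, against -0.41 for the members).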

How the data were processed

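The deposited values are log2 expression, which the authors made in Affymetrix Expression Console, per the submitters' processing notes; the background correction and normalization are not given in the sources used here. Of 72688 features 186 were controls, 31258 named 1 gene, 1492 several and 39752 none; 1152 symbols were updated. Of the 30702 genes, 441 had several features, and the one with the highest mean was used. Genes tested had 3 or more arrays above 5.30, which is the median over the whole table. Groups come from the sample titles. All 12 arrays were fitted with 1 mean per group in limma 3.58.1 (R 4.3.3), which was tested on simulated data, with Benjamini-Hochberg adjustment over the genes tested.

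Named genes are the up to 3 with the smallest p past the threshold in each role and comparison, or the 1 with the smallest p where none passed. Of the other lists, up to 3 are named. The members, lists and rules were chosen with earlier results of these data known. The labels do not say what a replicate number marks. Deviations of same-numbered arrays from their group means correlated between diets at 0.457, 0.18 and 0.524 in proerythroblasts and 0.717, 0.782 and 0.54 in basophilic erythroblasts. For the replicate block within each stage, the numbers were therefore taken to pair the diets. The main fit used no pairing, so its p-values are unpaired. The other replicate block joined same-numbered arrays across both stages. Differently numbered basophilic arrays also correlated, 1 with 3 at 0.598 and 3 with 1 at 0.513, and those of replicate 2 with the others at -0.76 to -0.571. Same-numbered arrays of the 2 stages correlated at 0.207, -0.068 and -0.165 on the adequate and 0.254, 0.195 and 0.097 on the deficient diet. They were not taken to be paired, although 0.207, 0.254 and 0.195 are above the 0.18 of proerythroblast replicate 2. The correlations thus do not cleanly separate pairing by diet from pairing by stage.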

Additional observations from a re-analysis of the deposited data

Results flagged for a closer look

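Utp15 was the 1 member whose diet effect differed between the stages by the test of the interaction itself, 1.12 on the log2 scale (SE 0.19, adjusted p = 0.0447, limma). Its diet estimate was -0.66 in proerythroblasts, where all 3 deficient arrays were lower, and 0.47 in basophilic erythroblasts, where all 3 were higher. The estimate ranged from 1.03 to 1.31 over 21 alternatives and the adjusted p from 1.02e-04 to 0.154, and the call was lost in 15 of the 21. Groups of 3 arrays are too small to be tested for single outlying arrays.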

How the results depend on the processing

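The falls with the stage were called in 50 to 52 members on the adequate and 48 to 53 on the deficient diet over all alternatives. Of all genes 16.7% to 37.6% and 11.1% to 36.5% then fell. The 5 falls with the diet in proerythroblasts became 8 under quantile normalization (2.8% of all genes fell) and 8 under median centring (4.07%). They became 36 with array weights, 11 with a replicate block and 20 with a replicate block within each stage. The arrays of the contrast only gave 21 (6.53% of all genes). Leaving out replicate 2 of both basophilic groups gave 25. Leaving out each array in turn gave 0 to 19, while 1.02% to 5.64% of all genes fell. The 0 calls in basophilic erythroblasts became 6 without replicate 2 of both basophilic groups, 22 with array weights and 0 to 7 with each array left out. With array weights 13.4% of all genes fell with the diet in proerythroblasts and 8.81% had a positive interaction. The 1 interaction became 0 with no filter, quantile normalization, median centring or a replicate block, 41 with array weights, 6 with a replicate block within each stage, and 19 without replicate 2 of both basophilic groups. Leaving out each array gave 0 to 14 interactions, while 0.0199% to 0.984% of all genes had a positive one. The cause was not tested. A replicate block changed no other count by over 1.5 times.

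Signs of single genes are listed here only for members named in a comparison. Of these, Lyar with the diet in basophilic erythroblasts was -0.01 without deficient basophilic replicate 1, and up to 0.38 with another array left out. Over all 54 members 24 of these diet estimates were below 0 without deficient basophilic replicate 1, against 7 in the main fit. It was 18 without adequate basophilic replicate 2 and 17 under median centring, and 5 without adequate basophilic replicate 1. Ubtf with the stage on the adequate diet was 0.02, and Imp3 on the deficient diet 0.08, under quantile normalization. Rrs1 on the adequate diet was -0.20 under median centring, -0.03 without replicate 2 of both basophilic groups, -0.0 with array weights and -0.12 to 0.09 with 1 array left out, among them -0.03 and -0.04 without adequate basophilic replicates 2 and 3. The fall of Imp3 on the adequate diet was not called under quantile normalization (-0.73, adjusted p = 0.0652). Median centring moved the median of all genes from 0.117 to -0.092 (adequate) and from 0.077 to -0.113 (deficient) in the stage comparisons, and the members' medians were then -2.30 and -1.72.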
